A study of Mus musculus with 30 samples.

Results

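Very long genes are described here through the origins of replication found at their ends and within their bodies. The set holds 140 of the 20558 protein-coding genes of mouse chromosomes 1 to 19, each with an end minus start of at least 600 kb in the mm10 RefSeq annotation. Symbols that begin with Kcn, Pcdh, Col, Lam, Itg, Rab, Usp or Fox were left out by rule, which removed 5 of 145 genes. The members ran from 601.9 kb (Hpse2) to 2271 kb (Ptprd), with a median of 899.3 kb against 17.6 kb over all protein-coding genes. Of them, 53 reached 1 Mb and 4 reached 2 Mb.

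The study labelled E14TG2a, an established line of mouse embryonic stem cells, to follow histones and replication forks across newly made DNA. The library used here came from wild-type cells grown in 2i/LIF medium, that is with a GSK3 inhibitor, a MEK inhibitor and leukemia inhibitory factor, and given 10 µM EdU, a thymidine analogue, for 2 min. It was an OK-seq library, which sequences the short Okazaki fragments of the lagging strand. The other 29 of the 30 samples, from wild-type cells and MCM2_2A mutant clones, were not analysed here.

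Okazaki fragments map to opposite strands under leftward and rightward forks, so an initiation zone appears as a stretch where fork direction turns from leftward to rightward. Replication starts at sites scattered through such a zone, and zones in mammalian cells often sit beside active genes. Many very long genes serve neuronal adhesion, synapses and axon growth, and several underlie common fragile sites, regions that break when replication is slowed and that have few origins in their core. A very long body without an origin has to be copied by forks that enter from outside.

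The authors' deposited list gave 2844 zones, each with a left edge, a right edge and, between them, a breakpoint, the 1 kb bin in which fork direction turned. The median zone was 112 kb wide. No arm from breakpoint to edge exceeded 100 kb, so wide zones may be shortened. The list came from 1 library and carries no read counts, so there was no replicate error, the depth is unknown, and no test was made. Percentages below carry Wilson 95% intervals and densities exact Poisson 95% intervals, which cover counting error only and treat genes and zones as independent. The list holds positions only, so the identity of the cells was not checked against marker genes, and whether a gene was transcribed was not measured.

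Fewer very long genes than shorter genes had an end inside an initiation zone. An end of the body lay inside a zone in 29 of the 140 members, 20.7% (14.8 to 28.2), against 32.4% of all protein-coding genes. Within 20 kb of a zone the count was 40 members, 28.6% (21.7 to 36.5), against 38.5% of all protein-coding genes. Both ends lay in zones in 2 members, Exoc4, a subunit of the exocyst that tethers secretory vesicles, and Tenm4, a teneurin adhesion receptor. That was 1.43% of the members, against 19.5% of all protein-coding genes, many of which are short enough to fit into 1 zone. The share was 7.43% for genes of 50 to 100 kb, 7.01% for 100 to 300 kb and 8.72% for 300 to 600 kb. Counted by ends, 31 of 280 lay in a zone, or 11.1%. The share of ends in a zone was 26.5% for genes under 50 kb, 24.5% for 50 to 100 kb, 26.2% for 100 to 300 kb and 21.8% for 300 to 600 kb.

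The share of ends in a zone fell further below that of other genes at the 5′ edge of the body than at the other end. This contrast was not tested. The strand of 108 members was known from the RefSeq promoter table, and for these the start means the 5′ edge of the body and the far end its 3′ edge. That edge is not always a listed transcription start. The outermost listed start lay within 2 kb of it in 82 of the 108 members and more than 100 kb inside it in 20. The start lay in a zone in 9 of 108 members, 8.33% (4.45 to 15.1), against 28.1% of all protein-coding genes with a known strand. The share was 34.5% (32.0 to 37.1) for genes of 100 to 300 kb and 24.9% (20.2 to 30.3) for genes of 300 to 600 kb. The interval of the members did not reach that of either class. The far end lay in a zone in 16 of 108 members, 14.8% (9.33 to 22.7), against 23.6% of all protein-coding genes. For genes of 300 to 600 kb that share was 19.5% (15.3 to 24.6), and its interval overlapped that of the members.

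Among the members themselves, the share of starts in a zone was 12.8% for the 39 genes of 600 to 800 kb. It was 6.38% for the 47 genes of 800 to 1200 kb and 4.55% for the 22 genes of at least 1200 kb. These rest on 5, 3 and 1 starts, too few to order the subsets.

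**Figure D1:**
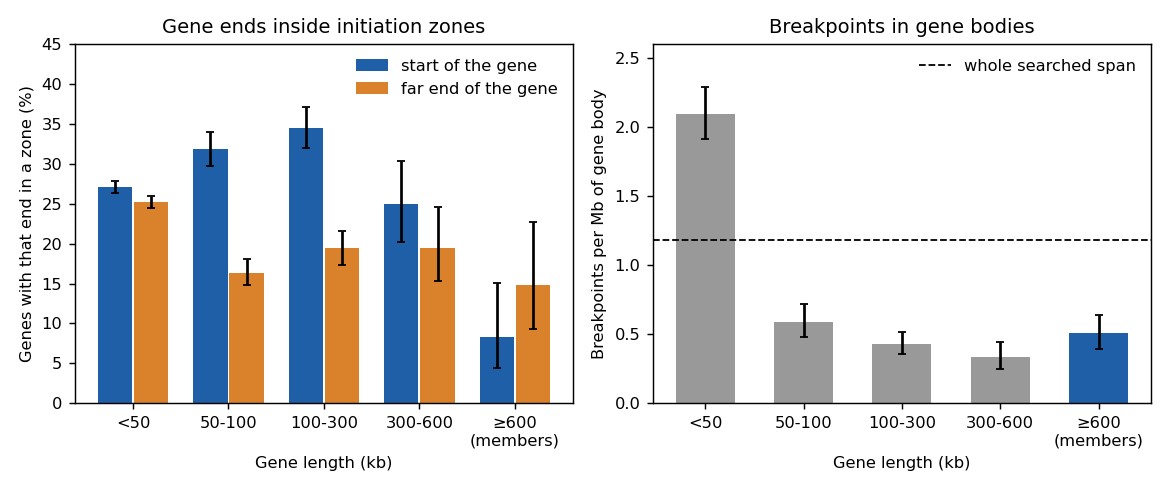
The left panel plots the percentage of genes whose start (blue) or far end (orange) lay in an initiation zone, by gene length in kb, with Wilson 95% intervals, and the right panel plots breakpoints per Mb of gene body with exact Poisson 95% intervals. Starts of the members stand at 8.33% against 24.9% for genes of 300 to 600 kb, and bodies of the members at 0.505 per Mb lie below the dashed line of the whole searched span at 1.18 per Mb.

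The 9 members with their start in a zone were Dpp6, an auxiliary subunit of potassium channels, Exoc4, Magi1, a scaffold of cell junctions, Tenm4, Immp2l, a peptidase of the mitochondrial inner membrane, Cdkal1, a transfer RNA modifying enzyme, Ptprg, a receptor tyrosine phosphatase, Gpc5, a glypican, and Cadm2, a synaptic adhesion molecule. In Magi1 this was the edge of the body only. Its listed transcription starts lay 370.2 and 371.0 kb inside the body, 255.7 and 255.0 kb from the nearest zone. The 16 members with their far end in a zone were Adgrb3, Agbl4, Exoc4, Tenm4, Marchf1, Rora, Mgat4c, Grip1, Tenm2, Mctp1, Mast4, Rbfox1, Epha6, Robo1, Dlgap1 and Trpm3. Members of unknown strand with an end in a zone included Naaladl2, Auts2, Wwox, Gpc6 and Csmd3.

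The promoters of 3 of these starts are printed because they show unlike sequence under the same kind of zone. Each is the reference sequence of RefSeq, GRCm38.p6 (mm10), from 250 bases before to 50 after a listed transcription start, written 5′ to 3′ on the strand of the gene, and capitals mark CG dinucleotides. The Gpc5 promoter, chr14:115091965-115092264 on the plus strand, holds 17 CG, that of Ptprg, chr14:11553303-11553602 on the plus strand, holds 36, and that of Tenm4, chr7:96170994-96171293 on the plus strand, holds 6.
Gpc5: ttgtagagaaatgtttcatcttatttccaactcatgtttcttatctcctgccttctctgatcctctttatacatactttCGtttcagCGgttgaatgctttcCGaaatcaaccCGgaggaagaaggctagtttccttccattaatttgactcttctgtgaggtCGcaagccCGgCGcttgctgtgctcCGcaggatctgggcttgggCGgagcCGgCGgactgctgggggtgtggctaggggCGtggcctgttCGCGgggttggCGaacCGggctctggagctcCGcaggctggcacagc
Ptprg: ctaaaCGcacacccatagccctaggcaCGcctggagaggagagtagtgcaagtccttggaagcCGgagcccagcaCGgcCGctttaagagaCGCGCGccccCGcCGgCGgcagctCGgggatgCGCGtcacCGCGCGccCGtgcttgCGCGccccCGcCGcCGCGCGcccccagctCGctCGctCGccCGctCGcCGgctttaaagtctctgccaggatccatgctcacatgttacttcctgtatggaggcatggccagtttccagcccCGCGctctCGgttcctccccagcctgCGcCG
Tenm4: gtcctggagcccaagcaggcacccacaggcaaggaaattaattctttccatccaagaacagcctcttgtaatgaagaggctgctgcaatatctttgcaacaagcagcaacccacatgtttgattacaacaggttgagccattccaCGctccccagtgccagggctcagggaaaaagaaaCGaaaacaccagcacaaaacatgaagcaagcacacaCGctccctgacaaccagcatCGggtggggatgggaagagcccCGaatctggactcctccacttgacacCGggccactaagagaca

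The start of the Gpc5 body, at base 115092201 of chromosome 14, lay 0.701 kb from a breakpoint, the closest of any member end. Its zone was 112 kb wide and reached 32 kb into the body, which held no breakpoint over its 1433 kb. The far end of Naaladl2 or its start, since its strand is not known, lay 1.35 kb from a breakpoint. In Tenm4 a zone of 105 kb covered the start with its breakpoint 12.3 kb inside the body, and a zone of 89 kb covered the far end with its breakpoint 5.41 kb outside. Exoc4 lay between breakpoints 32.6 kb outside its start and 23.5 kb outside its far end, and its body of 724.9 kb held none. Tenm4 and Exoc4 thus had zones on both sides and otherwise clear bodies.

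Further ends close to a breakpoint belonged to the glycosyltransferase-family gene Mgat4c (7.35 kb, far end), the membrane-bound ubiquitin ligase gene Marchf1 (8.66 kb, far end), the splicing factor gene Rbfox1 (11.0 kb, far end), Magi1 (13.6 kb, start) and Cadm2 (21.6 kb, start). Csmd3, of the CUB and Sushi domain family, lay 18.9 kb from a breakpoint and Auts2, a neurodevelopmental gene, 21.3 kb, both at an end of unknown kind. Of these 7, the breakpoint itself was within the body only in Mgat4c.

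With all zones counted, the region just outside the start carried fewer breakpoints per Mb in the members than in shorter genes. In the 50 kb outside the start there were 7 breakpoints in 108 members, 1.30 per Mb (0.521 to 2.67). Genes of 300 to 600 kb had 51 there, 3.68 per Mb (2.74 to 4.84), and genes of 100 to 300 kb had 354, 5.34 per Mb (4.80 to 5.93). The whole searched span had 1.18 breakpoints per Mb (1.14 to 1.23), so the members stood near that level and the shorter classes above it. With zones of 112 kb or more alone, the members had 1.11 per Mb (0.408 to 2.42) outside the start. That interval held the 2.31 per Mb of genes of 300 to 600 kb, and genes of 100 to 300 kb had 2.67.

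Outside the far end the classes lay closer together. The members had 12 breakpoints in those 50 kb, 2.22 per Mb (1.15 to 3.88), against 2.53 (1.76 to 3.51) for genes of 300 to 600 kb and 3.46 (3.02 to 3.93) for genes of 100 to 300 kb. Inside the body the density was lower at both ends. The first 50 kb after the start held 1 breakpoint, 0.185 per Mb (0.00469 to 1.03). The last 50 kb before the far end held 4, 0.741 per Mb (0.202 to 1.90). Each interval overlapped that of the 50 kb outside the same end.

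**Figure D2:**
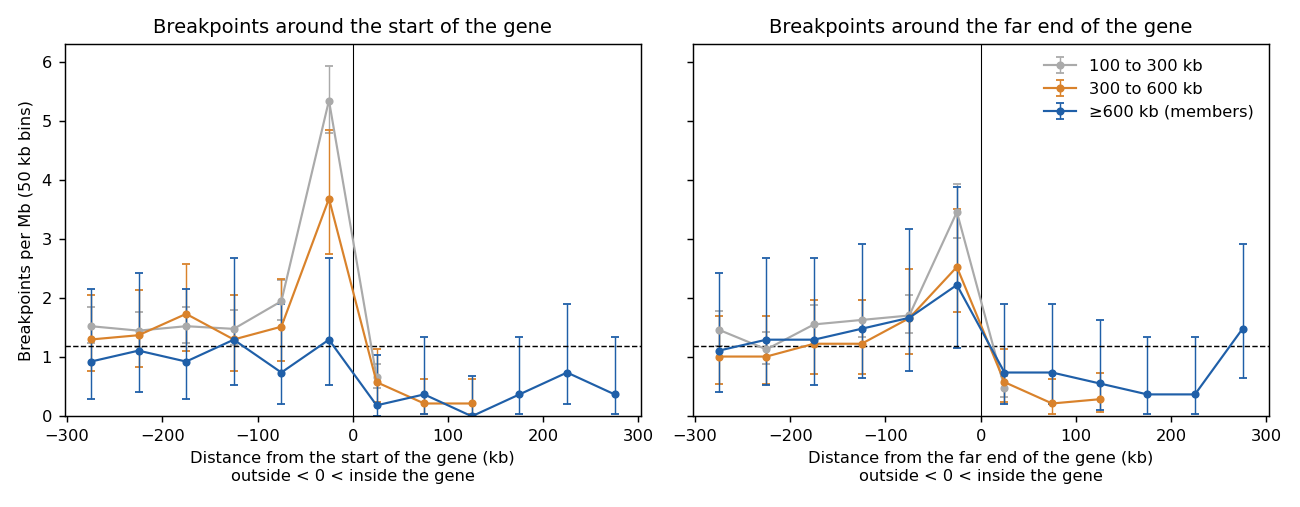
Breakpoints per Mb in bins of 50 kb are plotted against distance in kb from the start (left) and far end (right) of the gene, negative outside and positive inside, for genes of 100 to 300 kb (grey), 300 to 600 kb (orange) and the members (blue), with exact Poisson 95% intervals and the whole-span density as a dashed line. The peak just outside the start reaches 5.34 and 3.68 per Mb in the shorter classes and 1.30 in the members, while outside the far end the members reach 2.22.

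The next breakpoint going outward was a median of 448.7 kb from the start (quartiles 251.0 and 846.7) and 408.6 kb from the far end (149.2 and 928.0). For genes of 300 to 600 kb the medians were 302.0 kb and 432.8 kb, and for all protein-coding genes 317.6 kb and 359.4 kb. Of the 107 members with a breakpoint on both sides, the outward one was nearer on the start side in 51 and on the far side in 56. On each side 48 of 108 members, 44.4%, had more than 500 kb to go, against 36.2% on the start side and 38.7% on the far side over all protein-coding genes.

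**Figure D3:**
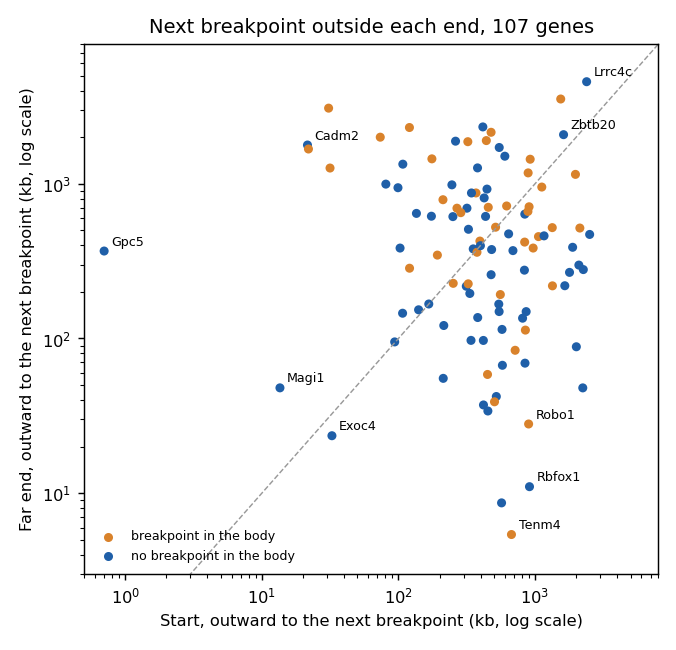
Each of 107 members is a point at its outward distance in kb from the start (horizontal) and from the far end (vertical) to the next breakpoint, on log scales, orange where the body holds a breakpoint and blue where it does not, with equal distances on the dashed line. Points spread over both sides of the line, with Gpc5 at 0.701 kb from its start, Tenm4 at 5.41 kb from its far end and Lrrc4c at 2385 and 4564 kb.

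The members lay in sparser neighbourhoods than shorter genes. They had a median of 1 other protein-coding gene within 500 kb outside the start, against 3 for genes of 300 to 600 kb and 4 for genes of 100 to 300 kb. Among genes with at most 2 such neighbours, the start lay in a zone in 8 of 69 members, 11.6% (5.99 to 21.2), against 31.1% of 395 genes of 100 to 300 kb and 21.6% (15.5 to 29.4) of 134 genes of 300 to 600 kb. The interval of the members then overlapped that of genes of 300 to 600 kb and stayed below that of genes of 100 to 300 kb (26.8 to 35.9). The breakpoint density in the 50 kb outside the start was, in these sparse settings, 1.74 per Mb (0.638 to 3.79) in the members and 3.58 (2.30 to 5.33) in genes of 300 to 600 kb. Without this limit the share of starts in a zone was 8.33% (4.45 to 15.1) in the members. It was 34.5% (32.0 to 37.1) in genes of 100 to 300 kb and 24.9% (20.2 to 30.3) in genes of 300 to 600 kb. In each set the interval for sparse settings overlapped the interval without the limit, and the change was not tested.

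Where a zone covered a member end, its breakpoint mostly lay outside the gene, as it did for genes of every length. There were 32 pairs of zone and end, because the far end of the carboxypeptidase gene Agbl4 lay under 2 listed zones with the same edges. The breakpoint was outside the body in 29, or 90.6%, against 88.7% of 11011 such pairs of all protein-coding genes and 89.2% for genes of 300 to 600 kb. It was inside in 3, at the start of Tenm4 and the far ends of Mgat4c and Mctp1. It lay outside at 8 of 9 starts and at 15 of 17 far ends. The distance from end to breakpoint had a median of 32.0 kb and ran from 0.701 kb to 97.1 kb, the last at the far end of Trpm3, a cation channel. The arm that pointed into the gene had a median of 71 kb and the outward arm 60 kb, with the inward arm longer in 18 of 32.

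The widths of zones inside and at the ends of the members are given as a description, because a wide zone is more likely to cover a given point and less likely to fit inside a gene. The 66 listed zones wholly inside a member had a median width of 91 kb (quartiles 71.25 and 127.75). It was 122.5 kb (104 and 149) for the 32 over a member end and 112 kb (82 and 138) for all zones. Pairs listed with the same edges, in Adgrb3, in Nav2 and at the far end of Agbl4, entered these values as separate zones. At least the overall median width was reached by 37.9% of the inside zones and 68.8% of those over ends. Zones over an end of any protein-coding gene had a median of 116 kb and those over an end of genes of 300 to 600 kb 130 kb, and the 33 zones wholly inside the latter had 104 kb. The limit of 100 kb on an arm was met by 1 of the 66 inside zones and by 9.56% of all zones. The nearest other breakpoint was a median of 669.5 kb away for inside zones and 359.0 kb for all.

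Breakpoints were sparse along the bodies. The bodies covered 136.6 Mb, 5.69% of the searched span, and held 69 breakpoints, 2.43% of all. At the whole-span rate they would have held 161.8. Their density was 0.505 per Mb (0.393 to 0.639), against 1.18 for the whole span, 1.42 (1.36 to 1.48) outside protein-coding genes and 0.844 in all protein-coding bodies. Bodies under 50 kb held 2.09 per Mb (1.91 to 2.29), of 50 to 100 kb 0.591, of 100 to 300 kb 0.428 (0.354 to 0.513) and of 300 to 600 kb 0.336 (0.250 to 0.442). The low density was thus shared by all length classes from 50 kb up. The members stood above the classes of 100 to 300 kb and 300 to 600 kb, with an interval that overlapped both. Zones covered 5.72% of the member bodies, against 13.0% of the span and 14.5% of all protein-coding bodies. Counting wide zones alone, those of 112 kb or more, the density was 0.190 per Mb in member bodies and 0.595 over the span.

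The outer parts of the body, both ends pooled, and its middle had about the same density. It was 0.507 per Mb in the outer 100 kb at each end and 0.504 in the middle, whereas the 100 kb flanks outside held 1.56 (1.13 to 2.11). In genes of 300 to 600 kb these values were 0.368, 0.306 and 2.35 (2.01 to 2.73). Of the 50 breakpoints in members of known strand, 12 lay in the part of the body next to the start when it was divided evenly into 3, 18 in the middle and 20 next to the far end. The 50% of the body away from the start held 32 of them, 64.0% (50.1 to 75.9). This share was not computed for other genes and was not tested. Adgrb3 and Nav2 each gave a pair of these breakpoints from the same zone.

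By gene, 81 members held no breakpoint, 48 held 1, 10 held 2 and 1 held 3. The share with at least 1 was 42.1%, against 4.02% of all protein-coding genes, most of which are far too short to be compared on this count. In all, 62 members, 44.3%, were touched by no zone at any base, against 67.1% of all protein-coding genes and 57.5% of those of 300 to 600 kb, which have less body to touch. Neither a breakpoint in the body nor a zone within 20 kb of an end was found for 59, or 42.1%, against 61.1% and 55.3%. Members without a breakpoint had a median span of 857.6 kb and those with one 931.5 kb.

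**Figure D4:**
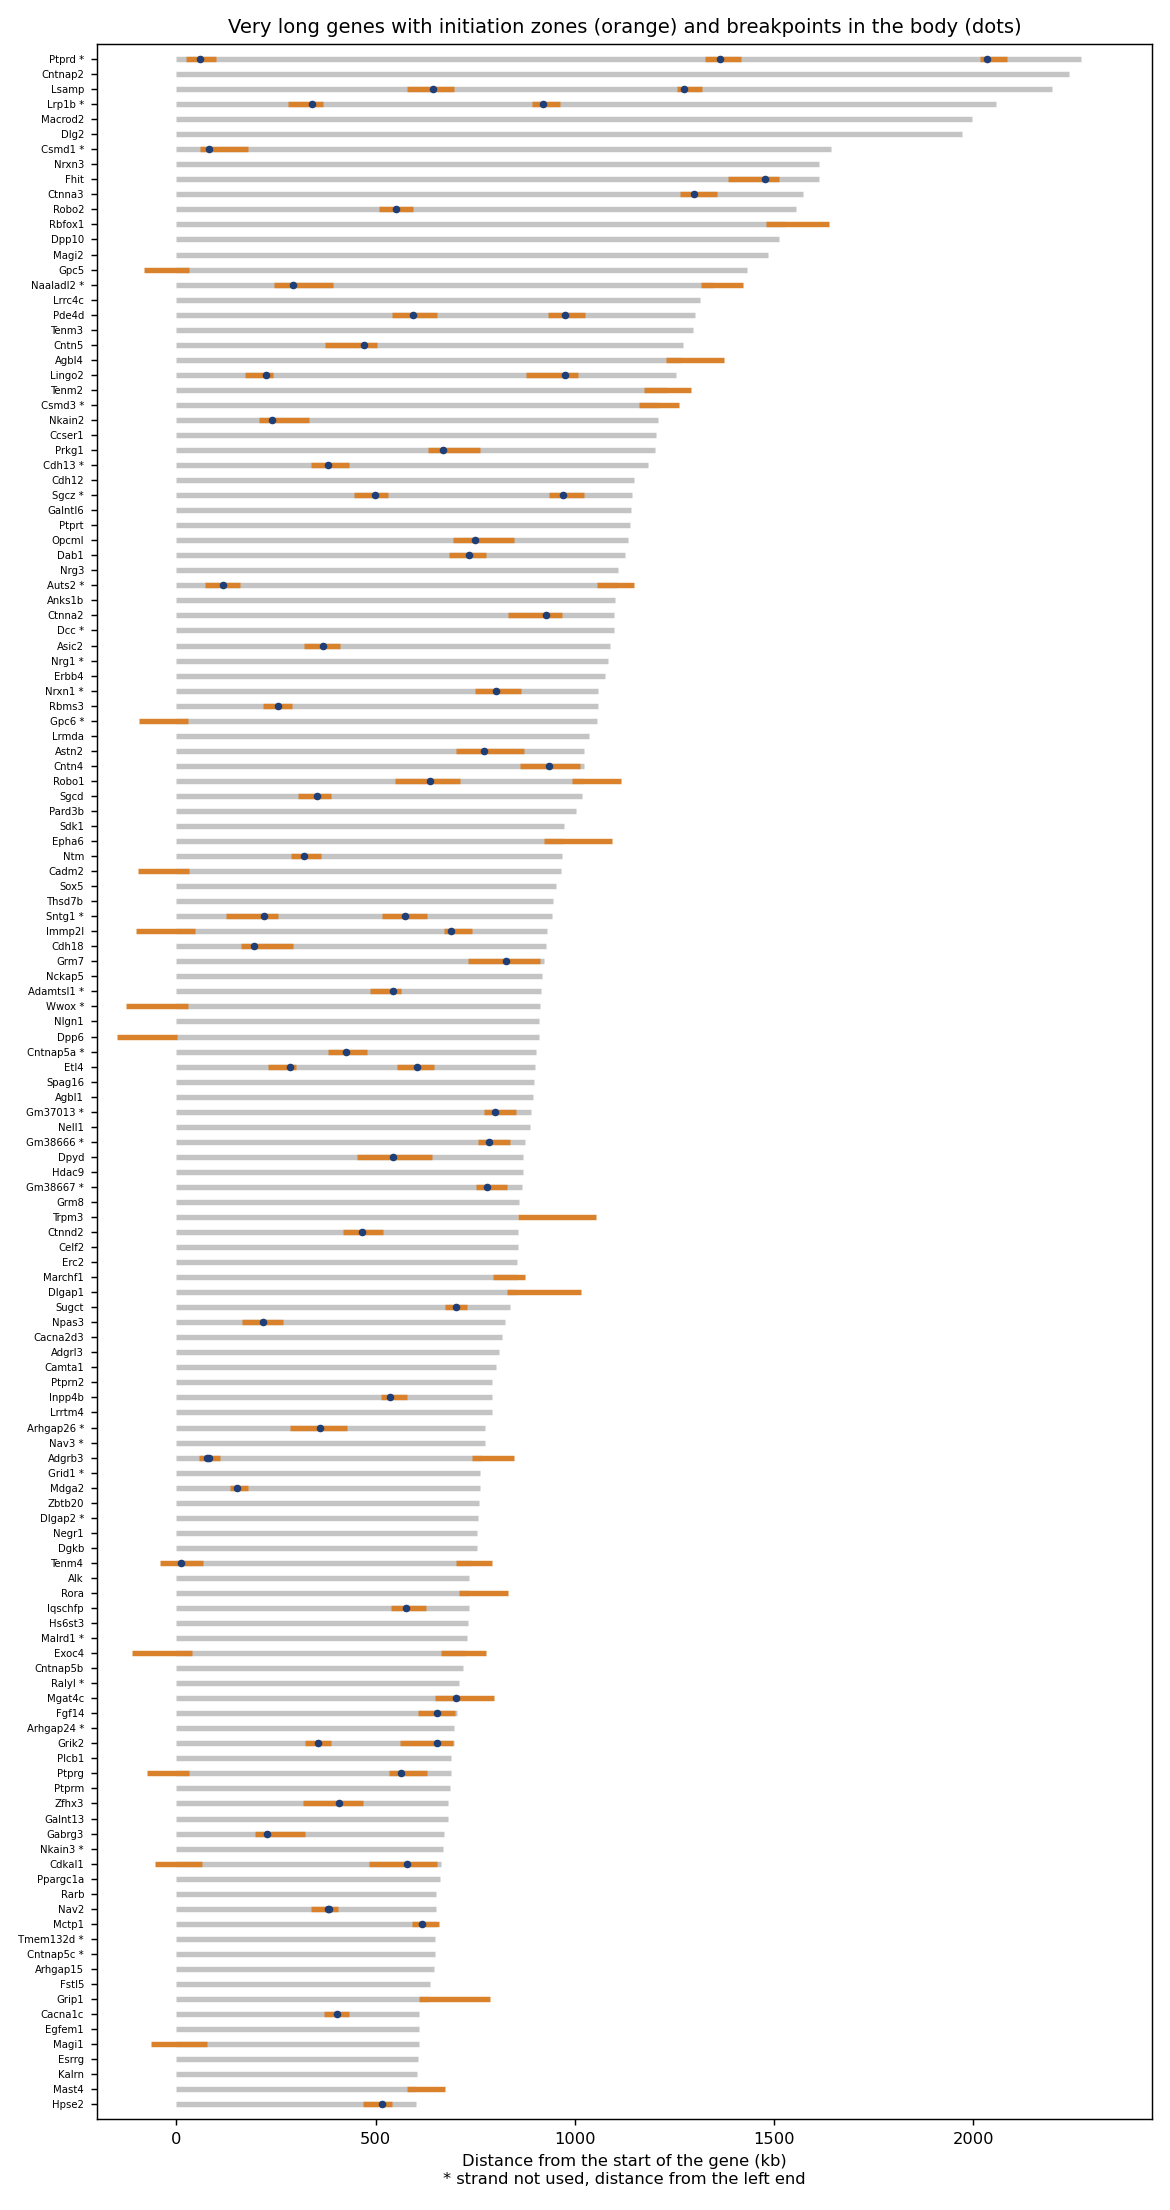
Each member reported here is a grey bar from its start at 0 kb, longest on top, along an axis in kb, with initiation zones that have their breakpoint in the body or cover an end in orange and breakpoints in the body as dots; for names with an asterisk the strand was unknown and the left end stands at 0. Ptprd has 3 breakpoints, and Cntnap2, Macrod2 and Dlg2 have none over about the same length.

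The longest members differed widely. Ptprd, a synaptic receptor tyrosine phosphatase at bases 75941237 to 78211742 of chromosome 4, held 3 breakpoints, 59.3 kb, 1365 kb and 2035 kb from its left end, in zones of 74, 90 and 67 kb. Cntnap2, a neurexin-related protein that clusters potassium channels along axons, spans bases 45060061 to 47301393 of chromosome 6, nearly the same length (2241 kb), and held none. Its next breakpoints lay 860.6 kb outside the start and 149.1 kb outside the far end. These genes of like length and neuronal role thus lay at opposite ends of the range.

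Lsamp, an IgLON adhesion gene of 2197 kb, held 2 breakpoints, 645.2 kb and 1275 kb from its start. Lrp1b, a member of the lipoprotein receptor family of 2058 kb, also held 2, 340.2 kb and 921.2 kb from its left end. Macrod2, which encodes an ADP-ribose hydrolase (1998 kb), Dlg2, which encodes the postsynaptic scaffold PSD-93 (1973 kb), and Nrxn3, a presynaptic neurexin gene (1612 kb), held none. The remaining genes of the 10 longest held 1 each. These were Csmd1 (1643 kb), Fhit, a nucleotide hydrolase gene at a classic fragile site (1612 kb), and Ctnna3, an alpha catenin gene (1574 kb). In Fhit the breakpoint lay 1477 kb from the start, at 91.6% of the body. In Ctnna3 it lay 1299 kb from the start, at 82.6%.

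Besides Ptprd, Lsamp and Lrp1b, the members with 2 listed breakpoints were Sntg1, a syntrophin gene, Adgrb3, an adhesion receptor, Etl4, Lingo2, a leucine-rich repeat protein gene, Nav2, a neuron navigator, Sgcz, a sarcoglycan gene, Grik2, a kainate receptor subunit, and Pde4d, a cyclic AMP phosphodiesterase. In Adgrb3 and Nav2 the listed pair lay close together between shared edges, so in each gene the pair belonged to 1 zone. Adgrb3 had a further zone over its far end. In Grik2 zones covered 28.6% of the body of 696.5 kb, with breakpoints 355.7 kb and 654.7 kb from the start. Sntg1 was next with 25.9% of 941.9 kb. The largest cover of any member was 35.3%, in Cdkal1, which had a zone over its start and another near its far end.

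The longest members without a breakpoint also included Rbfox1 (1528 kb), Dpp10, an auxiliary subunit of potassium channels (1514 kb), Magi2, a synaptic scaffold gene (1485 kb), Gpc5 (1433 kb) and Lrrc4c, a netrin-G ligand gene (1314 kb). Of these, Rbfox1 had a zone over its far end and Gpc5 a zone over its start. The longest stretch without a breakpoint within a member body had a median of 777.1 kb (quartiles 654.3 and 970.6).

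A body with no breakpoint must lie within a longer gap between neighbouring breakpoints, and some of these gaps were among the longest of the list. The 2825 gaps had a median of 592 kb, and those around members without a breakpoint a median of 1912 kb (670 to 8262). Lrrc4c lay in a gap of 8262 kb, rank 2 of all, with the nearest zone 2290 kb outside its start and the next breakpoint on the far side 4564 kb away. Cntnap5c lay in a gap of 5209 kb, rank 6. Zbtb20, a zinc finger transcription factor gene, lay in a gap of 4450 kb, rank 12, that also holds part of Lsamp, and Magi2 in one of 4019 kb, rank 15. Of the 20 longest gaps, 4 held all or part of 5 members, and other genes in these gaps were not counted.

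After Lrrc4c, the members farthest from any zone were Zbtb20 (1572 kb), Nkain3 (908.3 kb), Cntnap5c (890.1 kb) and Dcc, the netrin receptor gene (602.6 kb). In 10 members, 7.14%, both ends lay more than 500 kb from any zone, against 10.8% of all protein-coding genes.

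Breakpoints inside the members were seldom near another gene. Leaving out the ends of the members themselves, 13 of the 69 (18.8%) had an end of a gene of any kind within 20 kb and 3 (4.35%) an end of a protein-coding gene, with medians of 71.5 kb and 586.9 kb. Counted in the same way, the 51 breakpoints in bodies of 300 to 600 kb had such ends in 25.5% and 7.84%, with medians of 31.6 kb and 183.4 kb. A longer body leaves more room between a breakpoint and the genes around it, so these distances are a description.

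Several members have transcription starts deep inside the body, and a few of these lay under zones. RefSeq listed 172 starts for the 108 members, with more than 1 in 43. Of these starts 16 lay in a zone, 9.30%, against 28.1% of the 20085 listed starts of protein-coding genes. Of the 66 starts more than 100 kb inside the body, in 47 members, 7 lay in a zone, 10.6%, against 8.82% of the 306 such starts of all protein-coding genes. They belonged to 6 genes: Robo1, a Slit receptor of growing axons, Etl4 with 2 starts, Lingo2, Mgat4c, Dab1, the adaptor of Reelin signalling, and Zfhx3, a homeodomain transcription factor. In Robo1, Lingo2 and Zfhx3 the start in a zone was also the outermost one listed, so no listed start lay nearer to the edge of the body. Taking the outermost listed start in place of the edge of the body gave 11 of 108 members in a zone, 10.2%, against 27.8% of all protein-coding genes.

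The only listed start of Robo1, 635.6 kb into the body, lay 1.35 kb from a breakpoint, and its zone was 162 kb wide. The outermost listed start of Lingo2, 232.8 kb into the body, lay 8.54 kb from one. Both promoters are printed beside that of Lrrc4c, whose start was the farthest from a zone, to set starts in zones against one without. Robo1 is shown at chr16:72662899-72663198 (plus strand, 15 CG), Lingo2 at chr4:36718914-36719213 (minus strand, 0 CG) and Lrrc4c at chr2:96317919-96318218 (plus strand, 6 CG), in the same build and form as above.
Robo1: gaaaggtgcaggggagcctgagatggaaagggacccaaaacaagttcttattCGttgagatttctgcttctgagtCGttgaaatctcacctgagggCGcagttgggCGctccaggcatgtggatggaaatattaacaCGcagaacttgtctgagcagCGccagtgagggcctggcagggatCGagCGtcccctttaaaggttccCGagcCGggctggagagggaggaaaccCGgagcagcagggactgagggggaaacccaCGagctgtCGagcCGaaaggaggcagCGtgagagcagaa
Lingo2: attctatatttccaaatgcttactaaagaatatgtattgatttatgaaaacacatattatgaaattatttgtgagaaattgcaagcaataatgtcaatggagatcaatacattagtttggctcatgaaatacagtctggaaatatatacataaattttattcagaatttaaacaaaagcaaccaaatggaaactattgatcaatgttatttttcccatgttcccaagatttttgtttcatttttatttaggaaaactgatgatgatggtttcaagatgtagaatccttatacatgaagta
Lrrc4c: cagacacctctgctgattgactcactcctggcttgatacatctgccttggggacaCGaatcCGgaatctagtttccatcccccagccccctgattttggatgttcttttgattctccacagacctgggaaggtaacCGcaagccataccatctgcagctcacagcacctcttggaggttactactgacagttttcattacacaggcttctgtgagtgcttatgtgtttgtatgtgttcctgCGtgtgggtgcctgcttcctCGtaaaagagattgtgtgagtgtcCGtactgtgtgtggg

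The Lingo2 start is AT-rich without a CG and lies in a zone, while the Lrrc4c start has as many CG as that of Tenm4 and lies far from one. Most breakpoints inside members were not near a start of the same gene. Of the 50 in members with listed starts, 7 shared a zone with one, 6 lay within 20 kb of one, and the median distance was 282.6 kb. These values were not computed for other genes. A longer body leaves more room between a breakpoint and a listed start, so they are a description.

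Over all genes, starts rich in CG were more often in zones, and the shares in the members differed in the same direction, on few starts. Among starts with at least 10 CG in the 300 bases, 11 of 101 member starts lay in a zone, 10.9%, against 36.1% over all protein-coding genes and 24.6% in genes of 300 to 600 kb. Among starts with fewer, 5 of 71 member starts did, 7.04%, against 16.9% and 13.5%. The member shares rest on 11 and 5 starts and carry no interval, and whether the difference was smaller than in other genes was not tested. The median was 12 CG for member starts and 14 for all. It was 15 for the member starts within 100 kb of the outer end and 7 for those deeper inside. Member starts in a zone had a median of 12.5 CG and those outside 12.

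**Figure D5:**
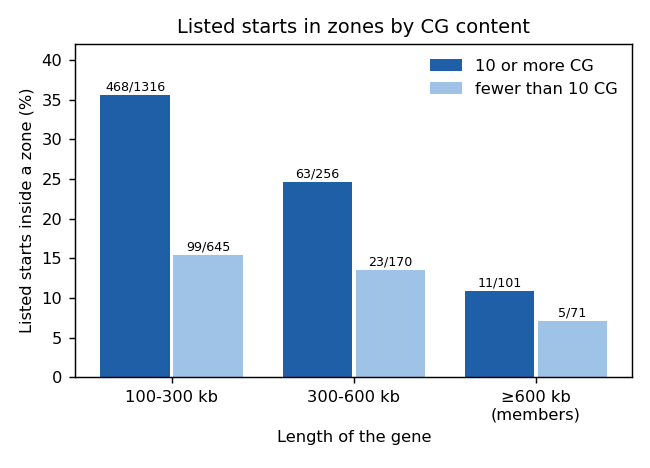
Bars give the percentage of listed transcription starts that lay in an initiation zone, for starts with at least 10 CG (dark) or fewer (light) in 300 bases, by gene length, with the counts on top. The members stand at 10.9% and 7.04%, and genes of 300 to 600 kb at 24.6% and 13.5%.

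Motif letters were searched on both strands of the same 300 bases. TATAAA was in 9.88% of member starts and 12.7% of all listed starts. GGGCGG, whose letters can overlap CG-rich stretches, was in 40.1% and 47.0%, and CCAAT in 33.1% and 38.1%. A match is a description of the letters only.

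By function, the lists are described by their counts, and the members of a list are summed without joining overlaps. Of the 33 genes of synaptic and cell adhesion, 17 held a breakpoint, 5 had an end in a zone, and the density was 0.518 per Mb, against 59, 29 and 0.513 for all 140 members. The longest were Cntnap2, Lsamp, Csmd1 and Nrxn3. Of 11 genes for ion channels and neurotransmitter receptors, among them Dpp10 and Grm7, 4 held a breakpoint and 2 had an end in a zone. Of 11 genes for axon guidance and neuronal migration, led by Robo2 and Dab1, 5 held a breakpoint and 3 had an end in a zone.

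The 13 genes listed for transcription, chromatin and RNA binding held 3 breakpoints, 0.265 per Mb (0.0546 to 0.773), and none of their 13 starts lay in a zone, where the share over all members was 8.33%. The list takes in Rbfox1 and Rbms3, which bind RNA, and Pard3b, a cell polarity gene that does not share the function. Its 3 breakpoints were in Rbms3, Npas3 and Zfhx3. The 7 phosphatase and phosphodiesterase genes held 7 breakpoints, 0.912 per Mb (0.367 to 1.88), of which Ptprd held 3, Pde4d 2, and Ptprg and Inpp4b 1 each. The intervals of both lists overlapped that of all members (0.401 to 0.647). The 27 scaffold, signalling and trafficking genes, led by Lrp1b, Dlg2, Magi2 and Gpc5, held a breakpoint in 7 and had an end in a zone in 6.

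The 35 members counted as genes of common fragile sites, by knowledge from human cells, had a median span of 1212 kb. Of them 17 held a breakpoint and 10 had an end in a zone, and the density was 0.439 per Mb. Fhit, Wwox, an oxidoreductase gene, and Immp2l are among the well-known ones. Fhit and Immp2l held 1 breakpoint each, and Wwox held none but had a zone over an end. These lists were described by count only.

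Some related genes differed and others had like counts. Of the teneurins, Tenm4 had both ends in zones, Tenm2 its far end, and Tenm3 neither, with its nearest zone 186.7 kb away. Of the junction scaffolds, Magi1 had the 5′ edge of its body in a zone, though not its listed starts, and Magi2 had that edge 1716 kb from one. Both glypicans, Gpc5 and Gpc6, had an end in a zone and no breakpoint in the body. Both Robo receptors, both contactins and both alpha catenins held 1 breakpoint each, and both neuregulins held none.

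By chromosome, with members summed without joining overlaps, the density in member bodies ran from 0.137 per Mb on chromosome 5, with 1 breakpoint in 8 members, to 1.23 on chromosome 13, with 5 in 5 members. On chromosome 18, Gm37013, Gm38666 and Gm38667 overlap within the protocadherin gene cluster, where the rule removed other genes by name, and they share 1 breakpoint, 1.88 kb from an end of Pcdhgb7. That breakpoint is counted once in the overall density of 0.505 per Mb, and for each gene in the counts of genes, lists and chromosomes.

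The limit of 600 kb divides a continuous range. Just below it lay Fat3 (592.5 kb), Fgf12 (595.5 kb), Frmd4a (596.4 kb), Lpp (599.2 kb) and Sorcs3 (599.5 kb), none with a breakpoint in the body and Lpp with an end in a zone. Just above lay Hpse2 (601.9 kb), Mast4 (602.6 kb), Kalrn (604.2 kb), Esrrg (606.4 kb) and Magi1 (608.5 kb), of which Hpse2 held a breakpoint and Mast4 and Magi1 had an end in a zone.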

How the data were processed

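The measurement was 1 OK-seq library of wild-type E14TG2a cells, for which the authors deposited a list of initiation zones. Per the file headers, its values are other than counts or scores, namely distances and bin positions in bp: a breakpoint bin, the minimum and maximum on either side of it, how far each lies, the size between them and how far the nearest other breakpoint is. Per the submitters' processing notes the build was mm10 and the tools included Trim Galore 0.4.2, BWA 0.7.13, Picard 2.8.2, SAMtools, Bowtie and bcl2fastq. What each did, and how zones were smoothed and called, was not given in the sources used here. Library depth is unknown.

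Gene positions came from a RefSeq gene table of GRCm38.p6 (mm10) without strand. Genes on scaffolds (333) were left out. Strand and transcription starts came from the RefSeq promoter table, which matched 108 of 140 members. No genome sequence was used. An end was called inside a zone when it lay between the zone's edges, and distances to the nearest zone ran in either direction, so they may cross the body. Overlapping bodies were joined before densities were taken, except by list and chromosome. Length classes left out the same name groups, except the classes of listed starts by CG content. Computation used Python 3.11.15, pandas 2.3.3, NumPy 2.4.6 and SciPy 1.17.1, and the scripts were tested on made-up positions with known answers.

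With 1 library no test was made, and shares over all protein-coding genes or shorter genes stand beside the main counts. Members, gene lists and alternatives were chosen with earlier results of these data known. Genes were named by rule: the 10 longest, the 10 with an end nearest to a breakpoint, those with the most breakpoints, the 10 longest with none, the 5 farthest from a zone, the 5 on each side of the length limit, and the longest of each list. A few members are left out of the text and the map of genes. Genes with an end or an inner start in a zone, families and the remaining examples were named after their values were seen. Alternatives were other distance limits, wide zones only, zones below the arm limit, zone middles, other length limits and no name exclusions. Overlapping zones were also joined, with the breakpoint set at the middle of each joined zone.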

Additional observations from a re-analysis of the deposited data

How the results depend on the processing

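No paired analysis was possible because the list came from 1 library. Of 53 alternatives for the main values, 43 stayed within the intervals and 10 did not. Members near a zone, 28.6% within 20 kb, were 37.1% within 50 kb, 17.9% with an end within 50 kb of a breakpoint, and 21.4% when wide zones alone (112 kb or more) were counted; for all protein-coding genes these shares were 45.4%, 29.1% and 23.4%. With those wide zones, members with an end inside a zone were 14.3%, against 20.1% of all protein-coding genes, and densities per Mb were 0.190 in bodies, 0.217 in the outer 100 kb and 0.183 in the middle, since fewer zones were counted. The longest stretch without a breakpoint had a median of 856.7 kb with wide zones, 664.0 kb for genes of at least 500 kb and 912.1 kb for genes of at least 800 kb. The share of starts in a zone ran from 5.80% to 12.5% over its alternatives. For single genes, 25 of 108 alternatives moved a count of breakpoints in the body. In Adgrb3 and Nav2, joining overlapping zones left 1. Joined zones and zone middles both set the breakpoint at a middle. The counts of Auts2, Csmd3, Magi1, Marchf1 and Mgat4c moved alike under both, so these 2 settings are not separate checks. With 1 library of unknown depth, an undetected zone cannot be told from an absent one.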
